A study of Mus musculus with 12 samples.

Results

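The 10 genes described here belong to the IL-1 and IL-18 arms of the IL-1 cytokine family. They comprise the cytokines *Il18*, *Il1b* and *Il1a*, the secreted antagonists *Il1rn* and *Il18bp*, the decoy receptor *Il1r2* and the receptor chains *Il1r1*, *Il1rap*, *Il18r1* and *Il18rap*. They were chosen by gene symbol, and all 10 were found among the 53801 genes of the count files. Their transcripts were measured by RNA-seq in dendritic cells (DCs) sorted from mouse intestine and divided by CD103 and CD11b, after gating on CD45, CD11c and MHC-II and against the macrophage marker CD64. The 4 groups were CD103+CD11b- and CD103-CD11b+ DCs of wild type (WT) mice and the same subsets of mice labelled CbfbF/F:CD11c-Cre (Cbfb-cKO), with 3 samples in each group. Cbfb-cKO mice carry floxed alleles of *Cbfb*, the shared partner subunit of the Runx transcription factors, and a Cre transgene driven by the CD11c promoter, which is active in DCs but not restricted to them. All mice had a mixed background, no treatment is named, and the labels do not give the age of these mice. The controls are labelled only as wild type, so whether they carried the Cre transgene is not known here. The samples of a group came from different mice, and each library was made from a small number of cells.

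The libraries held between 2161929 and 5863484 counts on genes, and no pair of replicates was as close as sampling noise would give. Levels are given as CPM, the count scaled to the TMM-normalised size of the library. Of the 6 pan-DC markers, none was called between genotypes in either subset, and *Zbtb46* was at 203 to 364 CPM in all samples. Of 8 markers of CD103+CD11b- DCs, 7 were called higher in that subset than in CD103-CD11b+ DCs in both genotypes, *Xcr1* for example at 384 to 680 CPM against 4.0 to 73.9 CPM. *Itgam*, which encodes CD11b, lay at 3.66 to 11 CPM in the CD103+CD11b- samples and at 77.9 to 222 CPM in the CD103-CD11b+ samples. The mean level of *Cbfb* over the whole gene was 214 CPM in WT and 242 CPM in Cbfb-cKO CD103+CD11b- DCs, and 188 and 207 CPM in CD103-CD11b+ DCs, so whole-gene counts did not separate the genotypes and do not check the labels. In bulk samples such as these, fewer cells of a type that makes a transcript and less of it per cell cannot be told apart.

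IL-1 alpha and IL-1 beta bind IL1R1, which then recruits the accessory chain IL1RAP and signals through MyD88 to NF-kB. The antagonist encoded by *Il1rn* occupies IL1R1 without signalling, and the decoy receptor IL1R2 binds the cytokine but has no signalling domain. IL-18 signals in the same manner through IL18R1 and IL18RAP and is held back by IL-18 binding protein, the product of *Il18bp*. IL-1 beta and IL-18 are made as precursors that caspase-1 cleaves after inflammasome assembly, and in the intestine both act on lymphocytes and the epithelium.

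On GRCm38, 4 of the 5 receptor genes lie in one cluster on the forward strand of chromosome 1, within 477627 bases: *Il1r2* (ENSMUSG00000026073, chr1:40074079-40125231), *Il1r1* (ENSMUSG00000026072, chr1:40225080-40317257), *Il18r1* (ENSMUSG00000026070, chr1:40465552-40500854) and *Il18rap* (ENSMUSG00000026068, chr1:40515362-40551705). The fifth, *Il1rap* (ENSMUSG00000022514), lies at chr16:26581704-26730117. The cytokine genes *Il1a* (ENSMUSG00000027399, chr2:129299610-129309972) and *Il1b* (ENSMUSG00000027398, chr2:129364570-129371139) are neighbours on the reverse strand of chromosome 2, while *Il1rn* (ENSMUSG00000026981) lies elsewhere on that chromosome, at chr2:24336853-24351494 on the forward strand. *Il18* (ENSMUSG00000039217) lies at chr9:50554827-50581840 on the forward strand and *Il18bp* (ENSMUSG00000070427) at chr7:102014885-102018690 on the reverse strand.

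Since *Cbfb* acts through Runx proteins, the promoters were searched for the Runx motifs TGTGGT and TGCGGT, and also for AP-1 (TGANTCA), PU.1 (GAGGAAG) and NF-kB motifs (GGG and TTTCC with any 2 bases between them), on both strands of the 250 bases before each RefSeq start site (GRCm38.p6). None of these motifs shared bases with another in the members' promoters. All 10 genes had a promoter in the RefSeq table, 15 promoters in all, and a Runx motif was found in that of *Il18* alone. Of all 32851 promoters, 18.6% hold a Runx motif, 6.75% an AP-1, 10.6% a PU.1 and 1.41% an NF-kB motif. The promoters shown are those of the members with the greatest change between genotypes in each subset, *Il18* (chr9:50554450-50554699) and the first of 3 promoters of *Il1rn* (chr2:24336610-24336859, of which the last 7 bases lie in a GENCODE exon), both on the forward strand. Capitals mark a Runx motif on the reverse strand in *Il18*, starting 65 bases before the start site, and an AP-1 motif in *Il1rn*, starting 141 bases before it.
*Il18*: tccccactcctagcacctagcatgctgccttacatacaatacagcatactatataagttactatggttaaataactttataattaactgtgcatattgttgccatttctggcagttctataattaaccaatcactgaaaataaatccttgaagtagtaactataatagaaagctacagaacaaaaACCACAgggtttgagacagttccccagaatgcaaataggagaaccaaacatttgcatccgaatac
*Il1rn*: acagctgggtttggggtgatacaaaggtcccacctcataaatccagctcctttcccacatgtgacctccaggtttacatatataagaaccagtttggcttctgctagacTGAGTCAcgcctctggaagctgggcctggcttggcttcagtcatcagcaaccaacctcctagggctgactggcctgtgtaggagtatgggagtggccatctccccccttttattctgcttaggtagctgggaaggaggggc
Of the other members, *Il1a* held an AP-1 motif and *Il1a*, *Il18r1* and *Il18rap* held PU.1 motifs, and the third *Il1rn* promoter held an NF-kB motif. These are matches of letters only, and binding was not measured.

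Compared per exon length in TPM, for which counts are divided by exon length and scaled to the same total in each sample, *Il1r2* and *Il1b* were the highest members in every group. In WT CD103+CD11b- DCs, *Il1r2* stood at 453 ± 43.4 TPM and *Il1b* at 399 ± 76.5 TPM (SD, n = 3), and together they held 48.4% and 42.6% of the members' summed level. *Il18bp*, *Il1rn* and *Il1a* followed at 22.1 ± 1.03, 21.3 ± 5.21 and 20.7 ± 19.7 TPM, and their ranges overlapped. The receptor chains *Il1r1*, *Il1rap*, *Il18r1* and *Il18rap* were lowest in that group, between 1.43 and 5.53 TPM, with *Il18* at 6.74 ± 3.24 TPM, and each of these overlapped its neighbour in the order.

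In WT CD103-CD11b+ DCs, *Il1r2* and *Il1b* reached 804 ± 186 and 791 ± 115 TPM (SD, n = 3), again with overlapping ranges. *Il18* ranked 8 of 10 in that group, at 19.5 ± 8.62 TPM, and overlapped its neighbours *Il18rap* (20.3 ± 5.95 TPM) and *Il18r1* (10.9 ± 9.13 TPM). In Cbfb-cKO CD103-CD11b+ DCs, *Il18* ranked 3 of 10, at 139 ± 12.2 TPM, and all 3 samples lay above those of *Il1rn* (90.7 ± 10.5 TPM) and below those of *Il1b* (797 ± 281 TPM). In Cbfb-cKO CD103+CD11b- DCs, *Il1b* and *Il1r2* still led, at 157 ± 37.4 and 97.5 ± 43.8 TPM, whereas *Il1rn* ranked 8 instead of 4, at 2.22 ± 2.04 TPM.

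**Figure D1:**
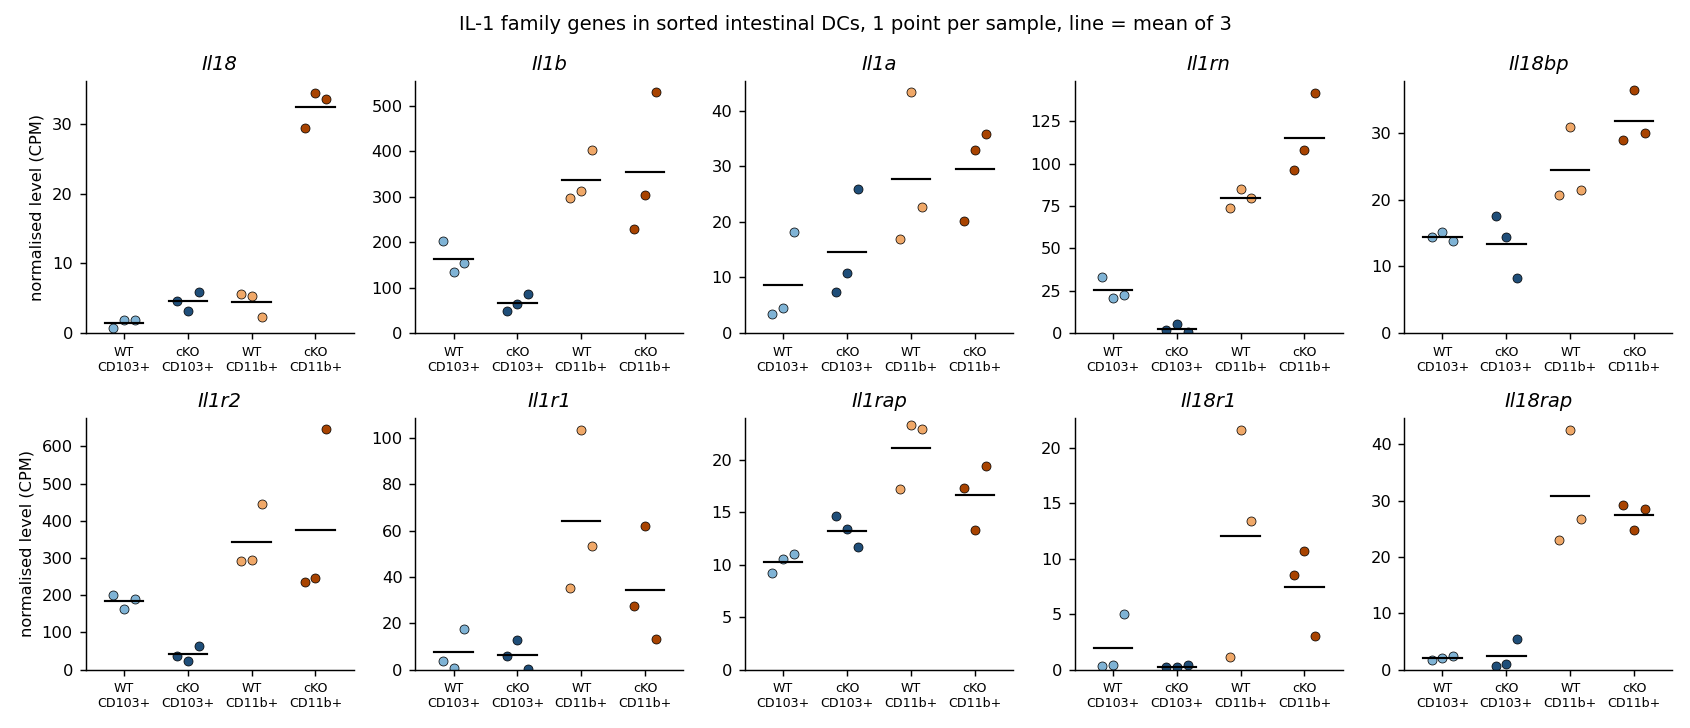
Level of each of the 10 genes in CPM (linear axes from 0) in the 12 samples, by genotype and subset, where CD103+ stands for CD103+CD11b- and CD11b+ for CD103-CD11b+ DCs. Points are single samples and lines the mean of 3 samples. *Il18* is high in Cbfb-cKO CD103-CD11b+ DCs, and *Il1rn*, *Il1r2* and *Il1b* are lowest in Cbfb-cKO CD103+CD11b- DCs.

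To ask what loss of *Cbfb* does to these genes, Cbfb-cKO samples were compared with WT samples within each subset by edgeR's quasi-likelihood test, with p adjusted by Benjamini-Hochberg over the 20580 genes tested. A gene was called when the adjusted p was under 0.05 and the fold change over 1.3. All 10 members passed the filter on low counts, 5 counts in at least 1 sample, and 5 of them had that many counts in every sample.

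In CD103-CD11b+ DCs, *Il18* was the one member of 10 that was called, where 1.61% of all genes tested were called in either direction, 1.11% higher and 0.5% lower. *Il18* encodes the precursor of IL-18. In the WT samples it was at 5.68, 5.33 and 2.33 CPM, from 29, 16 and 8 counts. The Cbfb-cKO samples held 29.4, 34.5 and 33.7 CPM, from 131, 145 and 66 counts. The groups were far apart, with even the lowest Cbfb-cKO sample at more than 5 times the highest WT sample. The mean rose from 4.44 ± 1.84 to 32.5 ± 2.73 CPM (SD, n = 3). The fitted change was 7.23-fold, with a log2 fold change of 2.85 (SE 0.39, 95% confidence interval 1.99 to 3.72, adjusted p = 0.0066). The call held when any 1 of the 6 libraries compared was left out, with a log2 fold change between 2.57 and 3.11 and an adjusted p between 0.013 and 0.031. In a fit to the 6 samples of this subset alone, the log2 fold change was 2.89 and the adjusted p 0.056. *Il18* is the gene of this family that the study itself singled out in these samples, so its presence in the list is no independent evidence.

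*Il18* was also higher in the Cbfb-cKO samples of the other subset, but at a much lower level. WT CD103+CD11b- DCs held 0.68, 1.83 and 1.94 CPM, from 2, 8 and 12 counts, and the Cbfb-cKO samples 4.66, 3.17 and 5.87 CPM. All 3 Cbfb-cKO samples lay above all 3 WT samples. The log2 fold change was 1.52 (SE 0.43, 95% confidence interval 0.58 to 2.46) with an adjusted p of 0.15, which misses the threshold, and with DESeq2 it was 1.54 with an adjusted p of 0.044. The effect was greater in CD103-CD11b+ DCs by 1.33 on the log2 scale (SE 0.58), a difference that was not called (adjusted p = 0.42).

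Some markers of other cells also differed between genotypes in CD103-CD11b+ DCs, in both directions. Epithelial cells are a known source of *Il18*, and none of the 9 epithelial markers tested of 10 was called in this subset, where their summed level was 227 to 402 CPM in the WT and 62.1 to 113 CPM in the Cbfb-cKO samples. The keratin gene *Krt8* was at 8.0 to 20.0 CPM in WT and at 0.90 to 2.55 CPM in the Cbfb-cKO samples. Most of the sum was *Cdh1* and *Epcam*, and *Fabp2*, an enterocyte gene, was at 0.20, 11.3 and 0.87 CPM in the WT and at 6.51, 4.52 and 0 CPM in the Cbfb-cKO samples. Of the 10 macrophage and monocyte markers, *Adgre1* alone was called (log2 fold change 1.93, adjusted p = 0.034), and the summed levels overlapped, at 670 to 986 CPM in WT and 739 to 963 CPM in the Cbfb-cKO samples. The neutrophil list summed to 46.8 to 59.3 CPM in WT and to 104 to 165 CPM in the Cbfb-cKO samples, with *Csf3r* the 1 gene called of 6 tested (log2 fold change 1.44, adjusted p = 0.035), while the defining genes *S100a8*, *S100a9* and *Ly6g* were at most at 4.94 CPM. Of 7 B cell markers, *Ms4a1* was called (log2 fold change 3.72, adjusted p = 0.0046), and the list summed to 482 to 712 CPM in WT and to 597 to 1109 CPM in the Cbfb-cKO samples. No marker of CD11b+ DCs (7 tested), T cells and ILCs (10), stroma (6) or mast cells and basophils (2 of 6 tested) was called in this comparison, and of the markers of CD103+CD11b- DCs *Itgae*, which encodes CD103, was called lower (log2 fold change -1.89, adjusted p = 0.030). The part of epithelial, macrophage, neutrophil and B cell transcripts in the result was not tested.

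The other 9 members were not called between genotypes in CD103-CD11b+ DCs. *Il1b*, the cytokine with the highest level, was at 297, 313 and 403 CPM in WT and at 228, 303 and 530 CPM in the Cbfb-cKO samples, with overlapping groups and a log2 fold change of 0.07 (95% confidence interval -0.60 to 0.73). *Il1r2* followed the same pattern, at 291, 296 and 444 CPM against 236, 247 and 646 CPM (log2 fold change 0.13, 95% confidence interval -0.77 to 1.02). In both genes, replicate 3 of the Cbfb-cKO samples was the highest of the 12 samples. Apart from *Il18*, only *Il1rn* had groups that did not overlap. It was at 73.8, 85.3 and 79.7 CPM in WT and at 96.1, 108 and 142 CPM in the Cbfb-cKO samples, with a log2 fold change of 0.53 (SE 0.34, adjusted p = 0.45). With *Il18* that made 2 of 10 members without overlap, beside 20.1% of all genes tested. The median log2 fold change of the 10 members was 0.08, and that of all genes -0.06.

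Among the remaining members of that comparison, the antagonist *Il18bp* had means of 24.4 ± 5.70 and 31.8 ± 4.01 CPM in WT and Cbfb-cKO samples (SD, n = 3), with a 95% confidence interval of the log2 fold change from -0.18 to 0.95. *Il1rap*, the accessory chain shared by several receptors of the family, was at 21.2 ± 3.42 and 16.7 ± 3.07 CPM (interval -0.81 to 0.11). The intervals of *Il1a*, *Il1r1*, *Il18r1* and *Il18rap* were wider and all held 0, the widest being that of *Il1r1*, the signalling receptor of IL-1, from -2.88 to 1.12, and that of *Il18r1*, from -2.73 to 1.44.

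**Figure D2:**
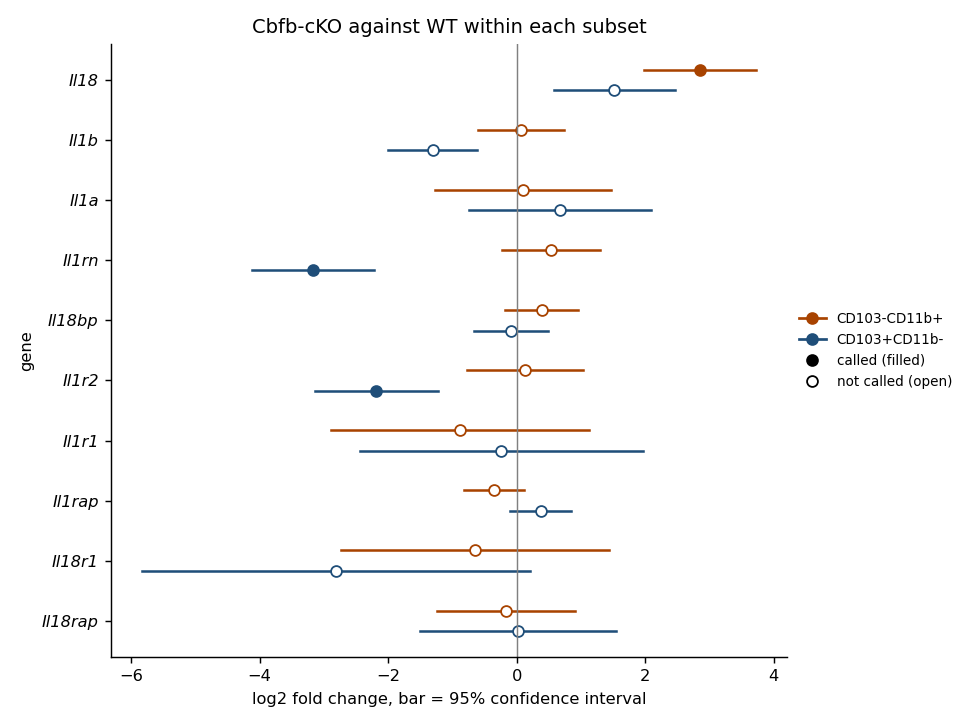
Log2 fold change of each gene between Cbfb-cKO and WT samples (x axis) in CD103-CD11b+ (brown) and CD103+CD11b- DCs (blue), with 95% confidence intervals from edgeR. Filled points were called, *Il18* in CD103-CD11b+ and *Il1rn* and *Il1r2* in CD103+CD11b- DCs.

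In CD103+CD11b- DCs, the members that were called were both inhibitors of IL-1 and both were lower in the Cbfb-cKO samples. They were *Il1rn* and *Il1r2*, 2 of 10 members, where 1.02% of all genes tested were called in either direction, 0.224% higher and 0.797% lower. *Il1rn* was at 33.2, 20.8 and 22.3 CPM in WT DCs, from 97, 91 and 138 counts. In the Cbfb-cKO samples it was at 1.78, 5.37 and 0.78 CPM, from 8, 22 and 2 counts, so the highest Cbfb-cKO sample was well below the lowest WT sample. The mean fell from 25.4 ± 6.74 to 2.64 ± 2.41 CPM (SD, n = 3). The level was 8.97-fold lower in the fit, with a log2 fold change of -3.17 (SE 0.43, 95% confidence interval -4.12 to -2.21, adjusted p = 0.0085). Without Cbfb-cKO replicate 1 the log2 fold change was -2.90 and the adjusted p 0.054. When any of the other 5 libraries was left out, the call held, and without Cbfb-cKO replicate 2, the highest of its group, the log2 fold change moved to -4.16.

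*Il1r2* was at 202, 164 and 191 CPM in WT and at 36.8, 23.2 and 64.1 CPM in Cbfb-cKO CD103+CD11b- DCs. The groups did not overlap. The mean fell from 186 ± 19.3 to 41.4 ± 20.9 CPM (SD, n = 3). In the fit it was 4.54-fold lower, with a log2 fold change of -2.18 (SE 0.44, 95% confidence interval -3.14 to -1.22). Its adjusted p of 0.046 lay just under the threshold. It rose to 0.059 with another normalisation (RLE), and it lay between 0.077 and 0.201 when WT replicate 1, 2 or 3 or Cbfb-cKO replicate 1 or 2 was left out, with log2 fold changes between -2.24 and -1.89.

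*Il1b* also lay lower in the Cbfb-cKO CD103+CD11b- DCs, but the difference was not called. The WT samples held 202, 135 and 155 CPM and the Cbfb-cKO samples 47.7, 64.4 and 86.8 CPM, again without overlap. The log2 fold change was -1.31 (SE 0.31, 95% confidence interval -2.00 to -0.62) with an adjusted p of 0.086. With DESeq2 it was -1.26 with an adjusted p of 0.0080, and without a filter on low counts -1.32 with an adjusted p of 0.030. *Il1b* shares 25 exon bases with its antisense gene *Il1bos*, and the reads were counted without strand. *Il1bos* held at most 32 counts in any sample and *Il1b* at least 215, and the part of the shared bases in these levels was not tested.

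In all, 5 of the 10 members had groups that did not overlap between genotypes in CD103+CD11b- DCs, *Il18*, *Il1b*, *Il1rn*, *Il1r2* and *Il1rap*, beside 18.1% of all genes tested. *Il1rap* was at 9.23, 10.5 and 11 CPM in WT and at 14.6, 13.4 and 11.7 CPM in the Cbfb-cKO samples, a small difference with a log2 fold change of 0.37 (SE 0.21, adjusted p = 0.65). *Il18bp* was at 14.4 ± 0.68 against 13.4 ± 4.74 CPM (SD, n = 3), with a log2 fold change of -0.09 (95% confidence interval -0.67 to 0.49). *Il18r1* was near the limit of detection, with 1, 2 and 31 counts in the WT and 1 count in each of the Cbfb-cKO libraries. The median log2 fold change of the 10 members was -0.16, and that of all genes -0.02.

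The lower levels of *Il1rn*, *Il1r2* and *Il1b* in Cbfb-cKO CD103+CD11b- DCs came with lower levels of transcripts that mark CD11b+ DCs. The summed level of the 7 markers of that list was 370 to 630 CPM in the WT and 84.9 to 138 CPM in the Cbfb-cKO samples of this subset, and 3 of the 7 were called lower. These were *Sirpa* (log2 fold change -2.74, adjusted p = 0.042), *Irf4* (-1.78, adjusted p = 0.024) and *Cd209a* (-2.80, adjusted p = 0.047). *Itgam* itself was not called, at 3.66 to 4.79 CPM in WT and 5.99 to 11 CPM in the Cbfb-cKO samples. The growth factor receptor gene *Csf1r* was at 25.6 to 49.2 CPM in WT and at 0 to 11 CPM in the Cbfb-cKO samples, where the macrophage and monocyte list as a whole summed to 292 to 409 and 176 to 262 CPM and no gene of its 10 was called. The part of CD11b+ DC transcripts in the fall of *Il1rn* and *Il1r2* was not tested. Of the lists for other cells in this subset, the B cell list summed to 484 to 564 CPM in WT and 331 to 626 CPM in the Cbfb-cKO samples (0 of 7 called), the stromal list to 138 to 555 and 101 to 358 CPM (0 of 6 called), and the neutrophil list to at most 9.27 CPM. The epithelial list summed to 120 to 277 and 25.0 to 133 CPM, with means of 150 and 25.5 CPM for *Cdh1* and of 42.9 and 11.4 CPM for *Epcam*, the 1 gene called of 9, which was lower. The median log2 fold change of the epithelial list was 1.31. *Vil1* for example was at 1.37, 0.69 and 1.62 CPM in WT and at 2.22, 14.9 and 3.91 CPM in the Cbfb-cKO samples, highest in replicate 2. The T cell and ILC list summed to 197 to 471 and 54.4 to 132 CPM (0 of 10 called), with lower means of *Cd4*, *Cd8b1* and *Il7r* in the Cbfb-cKO samples. The T cell gene *Cd3e* was at 2.39, 0.23 and 14.1 CPM in WT and at 0.44, 4.88 and 14.5 CPM in the Cbfb-cKO samples. *Trac* was at 1.37, 0.92 and 12.3 CPM and at 1.33, 6.59 and 11.7 CPM, so replicate 3 was highest in both genes and genotypes.

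**Figure D3:**
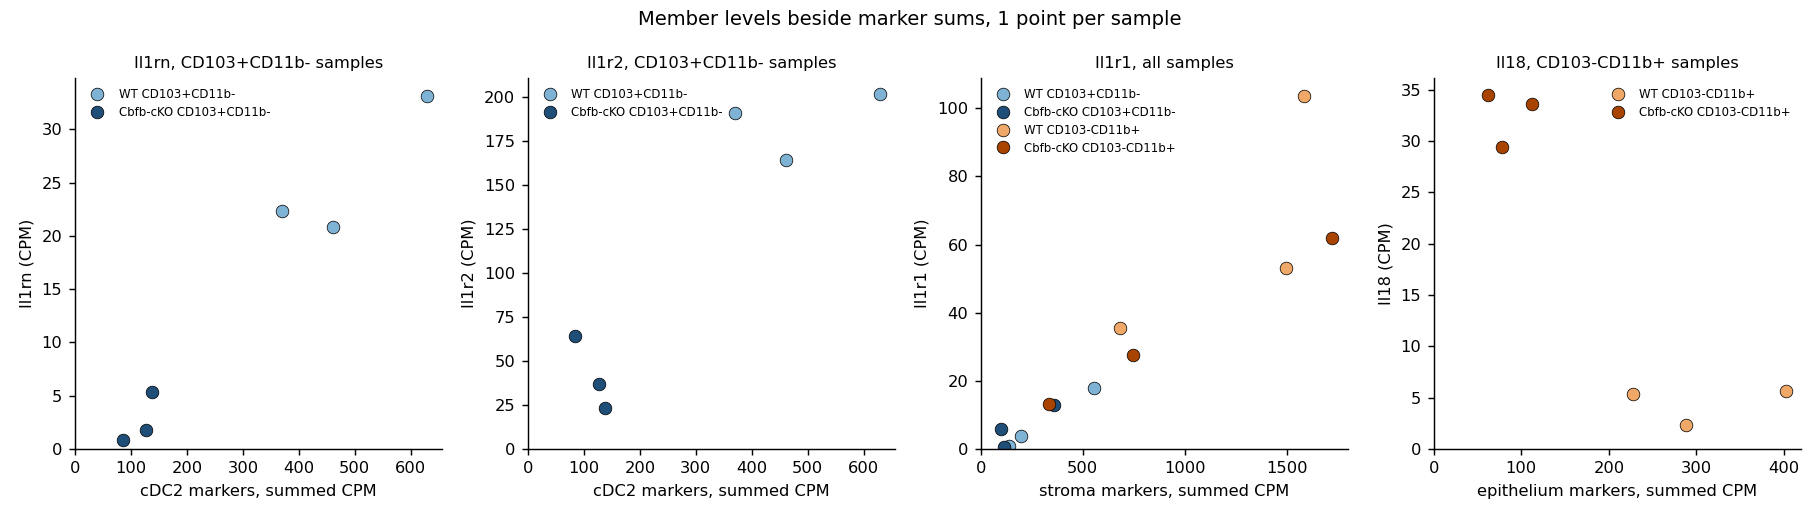
Level of a gene (y axis, CPM) beside the summed CPM of a marker list (x axis) in single samples. In CD103+CD11b- DCs, *Il1rn* and *Il1r2* are low in the 3 Cbfb-cKO samples, where CD11b+ DC (cDC2) markers sum to 84.9 to 138 CPM. *Il1r1* is highest where stromal markers are highest in each of the 4 groups, and *Il18* in CD103-CD11b+ DCs is shown beside the epithelial markers.

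The effect of genotype on *Il1rn* differed between the subsets. It was the 1 member of 10 whose difference of effects was called, where 0.651% of all genes tested were called, 0.554% with a positive and 0.0972% with a negative difference. The effect in CD103-CD11b+ DCs exceeded that in CD103+CD11b- DCs by 3.70 on the log2 scale (SE 0.55, 95% confidence interval 2.48 to 4.92, adjusted p = 0.018). The call was lost without WT CD103+CD11b- replicate 1 (3.47, adjusted p = 0.054), WT CD103-CD11b+ replicate 3 (3.71, adjusted p = 0.0504) or Cbfb-cKO CD103+CD11b- replicate 1 (3.43, adjusted p = 0.066), and without Cbfb-cKO CD103+CD11b- replicate 2 the difference was 4.69 and still called. For *Il1r2* the difference of effects was 2.31 (SE 0.59, adjusted p = 0.15) and for *Il1b* 1.37 (SE 0.43, adjusted p = 0.24), both in the same direction as that of *Il1rn* and neither called. With a replicate block by genotype and number both were called, *Il1r2* at 2.27 (adjusted p = 0.010) and *Il1b* at 1.31 (adjusted p = 0.040), while equal numbers deviated together in every pair of Cbfb-cKO but not of WT samples. Both genotype effects enter this difference, so it is not separate evidence for either.

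Ratios of counts within a sample need no scaling between libraries and show how the inhibitors stood relative to the cytokines in one group against another. The counts were not divided by exon length (5535 bases for *Il1rn* and 1907 for *Il1b*), so a ratio does not compare the levels of its 2 genes. In WT CD103+CD11b- DCs there were 16.4, 15.4 and 14.4 *Il1rn* counts per 100 *Il1b* counts, and in the Cbfb-cKO samples 3.72, 8.33 and 0.90. In CD103-CD11b+ DCs the ratio was 24.9, 27.3 and 19.8 in WT and 42.2, 35.5 and 26.7 in the Cbfb-cKO samples, with overlapping groups. The lower ratio in Cbfb-cKO CD103+CD11b- DCs thus did not overlap WT (exact two-sided permutation test, p = 0.10, the smallest p that 3 against 3 samples can give), whereas in CD103-CD11b+ DCs the exact permutation p was 0.20. *Il1r2* counts per 100 *Il1b* counts were close to even in 3 of the groups, from 81.6 to 123, and lower in Cbfb-cKO CD103+CD11b- DCs, at 77.2, 36.0 and 73.9.

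For IL-18, the cytokine and its soluble inhibitor were set side by side in the same way. The exon lengths of *Il18* and *Il18bp* are 1031 and 3026 bases, and their means in Cbfb-cKO CD103-CD11b+ DCs were 139 and 46.4 TPM. There were 27.4, 17.2 and 10.8 *Il18* counts per 100 *Il18bp* counts in WT CD103-CD11b+ DCs and 102, 94.8 and 112 in the Cbfb-cKO samples. In CD103+CD11b- DCs the ratio was 4.76, 12.1 and 14.1 in WT and 26.6, 22.0 and 71.4 in the Cbfb-cKO samples. The genotypes did not overlap in either subset (exact permutation test, p = 0.10 in both, the smallest possible). These ratios use the *Il18* counts already compared between genotypes, so they are not separate evidence for its rise. *Il18bp* shares 80 exon bases with *Numa1* on the other strand, and reads there could be left out or assigned to either gene.

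**Figure D4:**
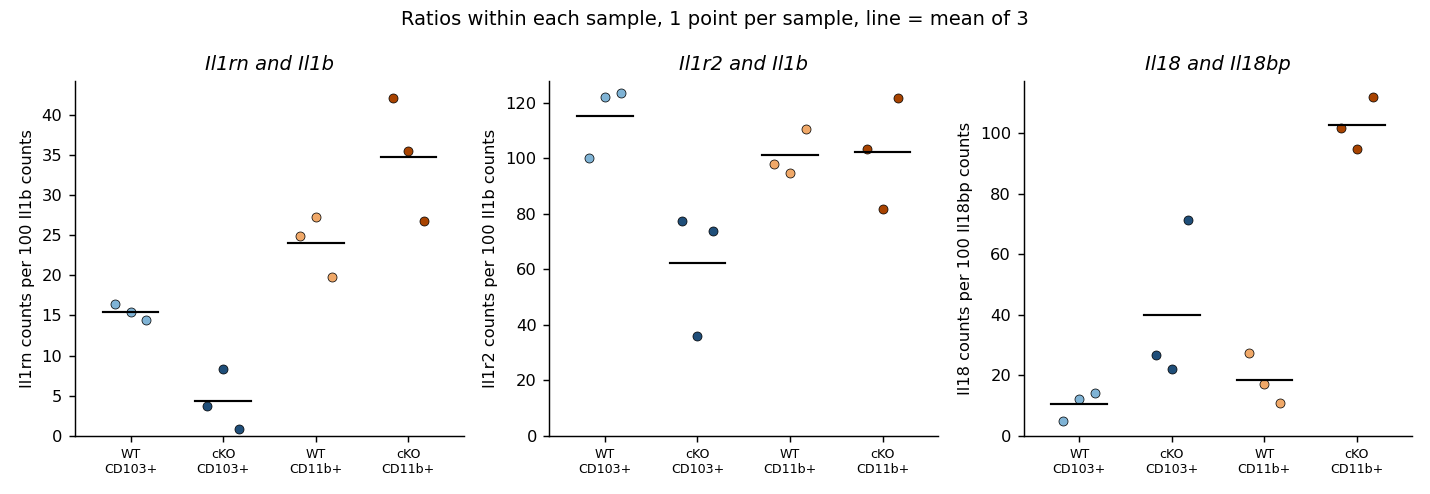
Counts of *Il1rn* and of *Il1r2* per 100 counts of *Il1b*, and of *Il18* per 100 counts of *Il18bp* (y axes, linear from 0), in the 12 samples by genotype and subset. Points are single samples and lines the mean of 3. Counts were not divided by exon length. *Il1rn* relative to *Il1b* is lowest in Cbfb-cKO CD103+CD11b- DCs, at 0.90 to 8.33, and *Il18* relative to *Il18bp* is highest in Cbfb-cKO CD103-CD11b+ DCs, at 94.8 to 112.

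The subsets themselves were then compared within each genotype. These comparisons use the same samples as those between genotypes. The subsets also differed in transcripts of other cells. In WT mice the macrophage and monocyte list summed to 670 to 986 CPM in CD103-CD11b+ and to 292 to 409 CPM in CD103+CD11b- DCs. Of its 10 genes, 6 were called higher in CD103-CD11b+ DCs and 1 lower. The neutrophil list summed to 46.8 to 59.3 and to 2.29 to 5.81 CPM, with 3 of 6 tested called higher. The part of these transcripts in the subset differences was not tested. All 10 members had a positive log2 fold change for CD103-CD11b+ over CD103+CD11b- DCs in both genotypes. In WT mice 5 members were called higher and none lower, where 18.8% of all genes tested were called in either direction, 11.8% higher and 7.0% lower, and in Cbfb-cKO mice 7 were called higher and none lower, beside 16.1% in either direction, 9.26% higher and 6.81% lower. Among these 7, *Il18r1* passed the filter in Cbfb-cKO mice through the CD103-CD11b+ samples alone, so its call carries no weight. The groups did not overlap for 8 members in WT and for 8 in Cbfb-cKO mice, beside 38.1% and 34.0% of all genes tested. The 8 of Cbfb-cKO mice include *Il18r1*, which carries no weight there either. With *Il18r1* included, the median log2 fold change of the members was 1.56 in WT and 2.63 in Cbfb-cKO mice, and that of all genes 0.07 and 0.11.

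In WT mice the greatest difference among the called members was that of *Il18rap*, the signalling accessory chain of the IL-18 receptor. It was at 1.71, 2.06 and 2.43 CPM in CD103+CD11b- DCs and at 23.1, 42.6 and 26.8 CPM in CD103-CD11b+ DCs, 3.85 higher on the log2 scale (SE 0.58, adjusted p = 0.0020). The call held without any 1 of the 6 libraries compared. By the fitted fold change, *Il1rn* was 3.15-fold higher in CD103-CD11b+ DCs (log2 fold change 1.65, SE 0.36, adjusted p = 0.012), and *Il1rap* 2.05-fold (1.04, SE 0.21, adjusted p = 0.0095). The call of *Il1rn* was lost without WT CD103+CD11b- replicate 2 (1.49, adjusted p = 0.060). The cytokines *Il18* (1.51, SE 0.42, adjusted p = 0.032) and *Il1b* (1.04, SE 0.31, adjusted p = 0.037) were called too, less firmly. *Il18* was no longer called without WT CD103+CD11b- replicate 1 or 2 or WT CD103-CD11b+ replicate 1 or 2 (log2 fold change 1.22 to 1.60, adjusted p 0.083 to 0.095), nor in a fit to the 6 WT samples (1.49, adjusted p = 0.12). For *Il1b* the adjusted p was 0.054 to 0.151 without any 1 of the 6 libraries, with a log2 fold change of 0.85 to 1.22.

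The members that were not called between the subsets in WT mice were *Il18bp*, *Il1a*, *Il1r1*, *Il1r2* and *Il18r1*. WT CD103+CD11b- replicate 3 stood apart in 3 of them. *Il1r1* was at 3.76, 0.92 and 17.8 CPM, *Il18r1* at 0.34, 0.46 and 5.01 CPM and *Il1a* at 3.42, 4.58 and 18.1 CPM in the 3 WT CD103+CD11b- samples. Without replicate 3, *Il1r1* and *Il1a* were called higher in CD103-CD11b+ DCs, *Il1r1* with a log2 fold change of 4.79 (adjusted p = 0.016) in place of 3.02 (SE 0.99, adjusted p = 0.055) and *Il1a* with 2.69 (adjusted p = 0.016) in place of 1.61 (SE 0.64, adjusted p = 0.10). *Il18r1*, with a log2 fold change of 2.49 (SE 1.02, adjusted p = 0.11), was called too without replicate 3 (4.69, adjusted p = 0.023), but only 1 and 2 counts are then left in the lower group, so that call carries no weight. It was also called without WT CD103-CD11b+ replicate 1 (2.99, adjusted p = 0.034), a sample in which it was at 1.17 CPM against 21.7 and 13.4 CPM in the other samples of its group.

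The same libraries held more stromal transcripts. The 6 stromal markers summed to 555 CPM in WT CD103+CD11b- replicate 3 against 196 and 138 CPM in replicates 1 and 2, and to 683, 1588 and 1495 CPM in the WT CD103-CD11b+ samples. In all 4 groups the sample with the most *Il1r1* was the one with the most stromal transcripts, and for *Il18r1* this held in 3 and for *Il1a* in 2 of the 4 groups. *Mertk*, a macrophage gene, was at 0, 0 and 12.1 CPM in the WT CD103+CD11b- samples, and the T cell gene *Cd3e* at 2.39, 0.23 and 14.1 CPM, while in WT CD103-CD11b+ DCs *Mertk* was at 22.7, 62.3 and 47.1 CPM and *Cd3e* at 0.39, 39.0 and 12.2 CPM. The part of these transcripts in the levels of *Il1r1*, *Il18r1* and *Il1a* was not tested. *Il1a* also shares 222 exon bases with the predicted gene *Gm14023* on the other strand, which held 13 to 60 counts per sample.

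In Cbfb-cKO mice the greatest differences between the subsets were those of *Il1rn*, *Il18rap* and *Il1r2*, leaving aside *Il18r1* with its 1 count in each CD103+CD11b- library. By the fitted fold change, *Il1rn* was 40.8-fold higher in CD103-CD11b+ DCs (log2 fold change 5.35, SE 0.45, adjusted p = 2.35e-05). *Il1r2* was 9.16-fold higher (3.20, SE 0.45, adjusted p = 7.2e-04), whereas in WT mice its difference was 0.89 (SE 0.41, adjusted p = 0.15). *Il18* was at 4.66, 3.17 and 5.87 CPM against 29.4, 34.5 and 33.7 CPM (2.84, SE 0.40, adjusted p = 6.5e-04). *Il1b* (2.42, SE 0.32, adjusted p = 4.8e-04) and *Il18bp* (1.23, SE 0.26, adjusted p = 0.0088) were called as well. None of these 5 calls, nor that of *Il18rap* (3.67, SE 0.59, adjusted p = 0.0016), was lost when any 1 of the 6 libraries compared was left out. The size of 3 of them depended on 1 library. The log2 fold change of *Il1rn* was 6.35 without Cbfb-cKO CD103+CD11b- replicate 2, that of *Il18rap* 5.02 without Cbfb-cKO CD103+CD11b- replicate 3, and that of *Il1r2* 2.56 without Cbfb-cKO CD103-CD11b+ replicate 3.

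*Il18r1* held 89 counts in the CD103-CD11b+ and 3 counts in the CD103+CD11b- libraries of Cbfb-cKO mice in all. That is a ratio of 31.2 with an exact 95% interval of 10.3 to 154, which covers counting error only. Its call in edgeR (log2 fold change 4.65, SE 1.32, adjusted p = 0.035) was lost, with an adjusted p of 0.071 to 0.122, without Cbfb-cKO CD103+CD11b- replicate 1, 2 or 3 or Cbfb-cKO CD103-CD11b+ replicate 1 or 2. *Il1rap*, by contrast, was called between the subsets in WT mice and had a log2 fold change of 0.32 (SE 0.21, adjusted p = 0.34) in Cbfb-cKO mice, where the groups overlapped. The difference of the genotype effects for *Il1rap* was -0.72 (SE 0.30, adjusted p = 0.39).

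**Figure D5:**
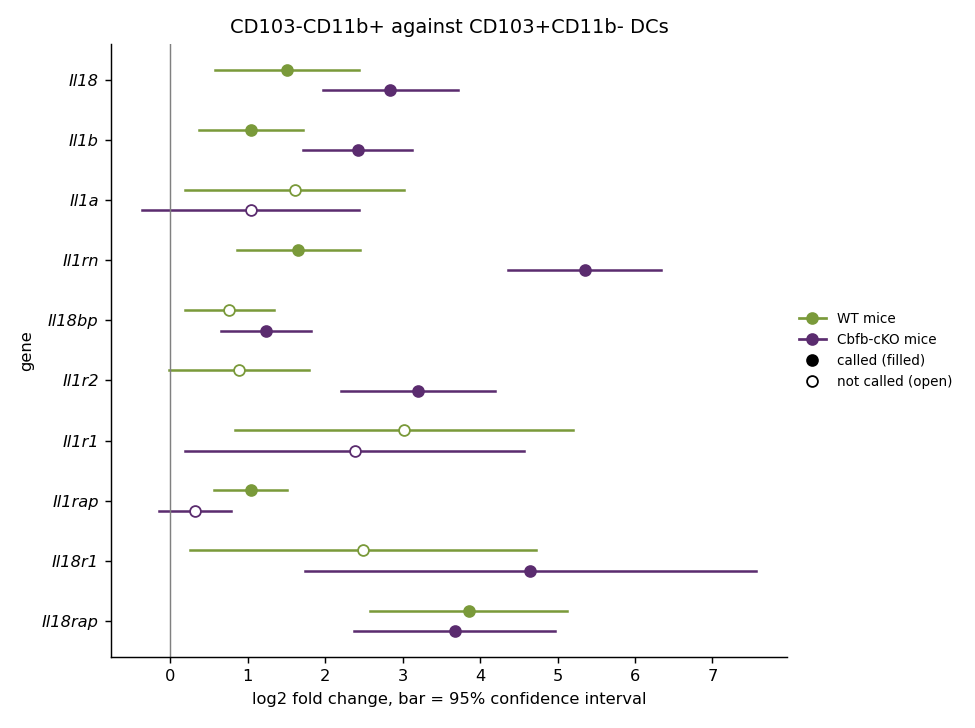
Log2 fold change of each gene between CD103-CD11b+ and CD103+CD11b- DCs (x axis) in WT (green) and Cbfb-cKO mice (purple), with 95% confidence intervals from edgeR and filled points for called genes. All values are above 0, and *Il1rn* in Cbfb-cKO mice is highest, at 5.35. The point of *Il18r1* in Cbfb-cKO mice rests on 3 counts in CD103+CD11b- DCs.

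Other genes of the family and of its pathway were described from lists drawn up by their known roles. Of 11 further IL-1 family cytokines and receptors, 4 had enough counts to be tested, and none of them was called between genotypes in either subset, with 1 (*Il1rl2* in CD103+CD11b- DCs) at an unadjusted p under 0.05. The alarmin gene *Il33* and its receptor gene *Il1rl1* passed the filter in WT mice through the CD103-CD11b+ samples alone, so their calls between the WT subsets carry no weight. *Il33* was at most at 0.68 CPM in the WT CD103+CD11b- samples and had a mean of 7.31 ± 5.67 CPM (SD, n = 3) in WT CD103-CD11b+ DCs. The inhibitory receptor gene *Sigirr* was called higher in WT CD103-CD11b+ DCs, with a log2 fold change of 0.82 (SE 0.24, adjusted p = 0.036). In Cbfb-cKO mice *Il1rl1* and *Il1rl2*, the receptor of the IL-36 cytokines, were called higher in CD103-CD11b+ DCs, with *Il1rl2* at 25.5 against 2.39 CPM (log2 fold change 3.32, SE 0.62, adjusted p = 0.0040). The call of *Il1rl1* was near the threshold (adjusted p = 0.042 in edgeR). It rested on 8.53, 77.6 and 5.10 CPM against 0.22, 2.68 and 0 CPM, the last 3 near the floor. *Il1rl1* had means of 31.6 ± 40.2 and 30.4 ± 40.9 CPM in the 2 groups of CD103-CD11b+ DCs, a spread greater than the mean.

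All 22 genes of the IL-1 receptor signalling list were tested. Between genotypes, *Peli1*, an E3 ubiquitin ligase of this pathway, was the 1 gene called, higher in Cbfb-cKO CD103-CD11b+ DCs (134 to 225 CPM in the means, log2 fold change 0.75, SE 0.13, adjusted p = 0.018), and 0 of 22 were called in CD103+CD11b- DCs. The unadjusted p was under 0.05 for 6 of the 22 in CD103-CD11b+ and for 5 in CD103+CD11b- DCs. Between the subsets in WT mice 5 were higher in CD103-CD11b+ DCs and 3 lower, beside 11.8% and 7.0% of all genes. Those with the smallest p among the 5 were *Irak3*, an inhibitor of the receptor complex (log2 fold change 3.36), *Nfkbiz* (1.26) and *Rela* (0.42), and the 3 were *Chuk* (-0.97), *Peli1* (-0.53) and *Tab2* (-0.50). In Cbfb-cKO mice 5 were higher, *Irak3* (2.91), *Tnfaip3*, which encodes the inhibitor A20 (1.46), *Nfkbiz* (1.43), *Irak2* (1.42) and *Ikbkb* (0.59), and *Chuk* was lower (-0.85), beside 9.26% and 6.81% of all genes. Over the 22 genes, the median of the log2 fold changes was 0.09 in WT and 0.10 in Cbfb-cKO mice, near that of all genes.

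Of the 17 genes listed for processing and release of the cytokines that were found in the count files, 13 were tested. *Nlrp1b*, an inflammasome sensor, was called higher in Cbfb-cKO than WT CD103-CD11b+ DCs (means of 246 and 105 CPM, log2 fold change 1.22, SE 0.24, adjusted p = 0.034), and none was called in CD103+CD11b- DCs. The unadjusted p was under 0.05 for 5 of the 13 in CD103-CD11b+ and for 2 in CD103+CD11b- DCs. *Casp1*, whose product cleaves both precursors, was higher in CD103-CD11b+ than CD103+CD11b- DCs in WT (22.1 against 11.2 CPM, log2 fold change 1.01, adjusted p = 0.025) and in Cbfb-cKO mice (32.8 against 10.3 CPM, 1.67, adjusted p = 0.0016). In WT mice 5 of 13 were higher in CD103-CD11b+ DCs, *Casp1*, *Casp4*, *Casp8*, *Nlrc4* and *Capn2*, and *Nlrp1b* was lower, beside 11.8% and 7.0% of all genes. In Cbfb-cKO mice 6 were higher, among them *Casp1*, *Casp8*, *Nlrp3*, *Nlrc4* and *Nek7*, and *Capn1* was lower, beside 9.26% and 6.81% of all genes. *Nlrc4*, the sensor adaptor for bacterial flagellin and secretion systems, had the greatest of these differences, at 51.2 against 4.86 CPM (log2 fold change 3.40, SE 0.30, adjusted p = 3.2e-05). No gene of the 3 lists was called for the difference of genotype effects between the subsets, with 1, 1 and 3 of their genes below 0.05 before adjustment.

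The genes with the pattern most like that of *Il18* were sought by Pearson's correlation of log2 CPM over the 12 samples, among 12645 genes with a mean of at least 5 CPM. The values describe the pattern only, since the 12 points fall into 4 groups and share their libraries. The nearest to *Il18* were *Lyl1* (r = 0.974), a transcription factor gene, *Gm45615* (0.970), *Cd1d1* (0.968), which encodes the lipid-presenting molecule CD1d, *Kcnd1* (0.954) and *Oas3* (0.951). Like *Il18*, all 5 had their highest mean in Cbfb-cKO CD103-CD11b+ DCs, *Cd1d1* for instance at 147 CPM against 28.1 CPM in the WT samples. The nearest to *Il1b* were *Irf4* (0.981), *Gm43753* (0.975), *St7* (0.971), *Ifitm1* (0.966) and *Emb* (0.965). *Irf4*, a transcription factor of CD11b+ DCs, had means of 179 and 52.5 CPM in WT and Cbfb-cKO CD103+CD11b- DCs and of 335 and 333 CPM in CD103-CD11b+ DCs. The nearest to *Il1rn* were *Siglece* (0.983), an inhibitory lectin gene, *Cyp4f18* (0.982), *Gm15527* (0.980), *Atrnl1* (0.978) and *Csf1r* (0.978). *Siglece* had means of 33.2 and 1.18 CPM in WT and Cbfb-cKO CD103+CD11b- DCs and of 90.4 and 104 CPM in CD103-CD11b+ DCs.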

How the data were processed

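RNA-seq libraries of 12 samples of sorted intestinal DCs were used, 3 for each genotype and subset, with groups taken from the labels. Per the study's methods, the authors prepared the libraries with a RamDA-seq procedure scaled for bulk input, trimmed the reads with Trim Galore, mapped them to mm10 with STAR 2.7, discarded poorly mapped and duplicate reads, and ran htseq-count without strand. The authors deposited raw counts per Ensembl gene, 1 file per sample, of which 5 lines that name no gene were not used. Between 32.7% and 38.8% of each sample's counted reads fell on genes. Removal of duplicates lowers the counts of the most abundant transcripts, and without strand, reads of overlapping antisense genes cannot be told apart.

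Symbols, positions and exon lengths were taken from GENCODE M21 (GRCm38), which matched 99.8% of the 53801 gene IDs. The 20580 genes that reached 5 counts in any of the 12 samples were normalised by TMM. All groups entered 1 quasi-likelihood model (edgeR 4.0.16 with limma 3.58.1 and R 4.3.3), p-values were adjusted by Benjamini-Hochberg, and a gene was called below an adjusted p of 0.05 if its fold change also exceeded 1.3. The 5 comparisons were Cbfb-cKO with WT in each subset, the subsets in each genotype, and the difference of genotype effects. TPM was computed from exon length, and ratios were tested by exact permutation tests (scipy 1.17.1). The script was tested on simulated counts. Intervals from counts cover counting error only, and 3 counts were taken as the floor of detection.

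The 10 genes, the pathway lists and the marker lists (pan DC, CD103+CD11b- DC, CD11b+ DC, macrophage and monocyte, neutrophil, epithelium, B cell, T cell and ILC, stroma, mast cell and basophil) were chosen with earlier results of these data known. All 10 genes are named in the text, and a gene of a pathway list where it was called, at most the 6 with the smallest p per list and comparison. Other normalisation, filters, DESeq2 1.42.0, fits to 6 samples, replicate blocks and leaving out single samples were tried. All 4 groups carry the replicate numbers 1 to 3. In Cbfb-cKO mice, samples of the 2 subsets with the same number deviated together (r = 0.183, 0.527 and 0.469 across genes), so the number was taken to pair them there. Unequal numbers there had r of up to 0.124, and the labels do not say whether equal numbers share a mouse. Elsewhere at least 1 pair had r under 0.1, as in the WT subsets (r = 0.512, -0.152 and 0.407).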

Additional observations from a re-analysis of the deposited data

Results flagged for a closer look

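The effect of genotype on *Il1rn* differed between the subsets by a test of the difference itself. It was 3.70 greater on the log2 scale in CD103-CD11b+ than in CD103+CD11b- DCs (SE 0.55, adjusted p = 0.018 in edgeR, Benjamini-Hochberg). *Il1rn* was lower in all 3 Cbfb-cKO than in all 3 WT samples of CD103+CD11b- DCs, and higher in all 3 Cbfb-cKO than in all 3 WT samples of CD103-CD11b+ DCs, where the genotype comparison itself was not called.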

How the results depend on the processing

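The rise of *Il18* in CD103-CD11b+ and the fall of *Il1rn* in CD103+CD11b- DCs kept their direction under all alternatives that tested them. Requiring 5 counts in every sample left both untested and called 0, 1, 3, 3 and 0 members in the comparisons of genotypes in CD103-CD11b+ and in CD103+CD11b- DCs, of the subsets in WT and in Cbfb-cKO mice, and for the difference of effects, where 1, 2, 5, 7 and 1 were called before. A fit to the 6 samples of CD103-CD11b+ DCs called 0 members there, and RLE normalisation called 1 in CD103+CD11b- DCs. DESeq2 called 4 members between genotypes in CD103+CD11b- DCs, 8 between the subsets in WT mice, where the count of genes went from 3860 to 4492, and 2 for the difference of effects. For genes, 331, 210 and 134 were called between genotypes in CD103-CD11b+ DCs, in CD103+CD11b- DCs and for the difference of effects. DESeq2 called 1136, 655 and 502 in that order. In CD103-CD11b+ DCs the every-sample filter called 573 and the 6-sample fit 27, and without a filter 320 were called in CD103+CD11b- DCs and 205 for the difference of effects. The cause was not tested.

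With the replicate number as a block, 849, 522 and 330 genes were called, and 8 members between the subsets in WT mice and 2 for the difference of effects. A block by genotype and number gave 328 genes and 3 members (*Il1rn*, *Il1r2* and *Il1b*) for the difference and 8 members in WT mice. It changed no call of a member between the subsets in Cbfb-cKO mice, where the number was taken to pair the samples. *Il18rap*, which was never called between genotypes, reversed to -0.028 in CD103+CD11b- DCs with the block by number and to 0.043 for the difference of effects with that by genotype and number.

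Without single replicates, 121 to 517, 46 to 241, 1410 to 4140, 2124 to 3638 and 29 to 210 genes and 1 to 1, 0 to 2, 2 to 7, 6 to 7 and 0 to 1 members were called in the 5 comparisons, in the order given first. Log2 fold changes of members that were not called reversed in CD103-CD11b+ DCs for *Il1a* (-0.14 to 0.59), *Il1b* (-0.34 to 0.32), *Il1r2* (-0.51 to 0.40), *Il18r1* (-1.18 to 0.10) and *Il18rap* (-0.31 to 0.15), in CD103+CD11b- DCs for *Il18bp* (-0.33 to 0.15), *Il1r1* (-1.19 to 1.60) and *Il18rap* (-1.33 to 0.52), and for the difference of effects for *Il1a* (-1.70 to 0.093), *Il1r1* (-2.46 to 0.31), *Il18r1* (-0.089 to 2.88) and *Il18rap* (-0.68 to 1.17). With RPKM in place of TPM, *Il18* ranked 4 and *Il18bp* 5 in Cbfb-cKO CD103+CD11b- DCs.

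Counts under about 30 per library, such as those of *Il18* in all groups but Cbfb-cKO CD103-CD11b+ DCs, *Il1rn* in Cbfb-cKO CD103+CD11b- DCs, and *Il18r1* and *Il18rap* in CD103+CD11b- DCs, limit the precision of those levels.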

Other observations

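The balance between both cytokines that caspase-1 processes, taken as *Il1b* counts per 100 *Il18* counts, was lower in the Cbfb-cKO samples of each subset without overlap. In CD103-CD11b+ DCs it was 5231, 5863 and 17300 in WT and 775, 879 and 1576 in the Cbfb-cKO samples. In CD103+CD11b- DCs it was 29500, 7363 and 7975 in WT, where *Il18* held only 2, 8 and 12 counts, and 1024, 2031 and 1480 in the Cbfb-cKO samples. Both comparisons gave p = 0.10 in the exact two-sided permutation test, the smallest that 3 against 3 samples allow. They reuse counts already compared between genotypes, without division by exon length, and are not separate evidence.

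Decoy receptor transcripts outnumbered those of the signalling receptor in every sample. There were between 179 and 17950 *Il1r2* counts per 100 *Il1r1* counts, the lowest in Cbfb-cKO CD103+CD11b- replicate 2, where *Il1r1* held 53 counts. The highest values are imprecise, since 17950 rested on 4 *Il1r1* counts and 16400 on 1. The IL-36 receptor gene *Il1rl2*, which lies in the same cluster, had means of 10.6 and 2.39 CPM in WT and Cbfb-cKO CD103+CD11b- DCs (log2 fold change -2.03, SE 0.61), with an adjusted p of 0.19 by edgeR's quasi-likelihood test that misses the threshold.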
